A study of Mus musculus with 8 samples.

Results

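Chemokines and their receptors were read as a gene family in kidney cortex RNA sequencing of mice labelled as wild-type or null for the Hippo pathway gene Sav1. The family comprised every gene name in the deposited table that begins as a CC, CXC, CX3C or XC chemokine ligand or receptor. This gave 55 of 21705 gene names, of which 36 were ligands and 19 receptors. The wild-type group held 4 libraries of Sav1+/+ mice that received vehicle, and the Sav1-null group 4 libraries of Sav1-/- mice that received tamoxifen. All 8 came from cortex of mice of mixed background strain. The labels name no age, no Cre driver and no litter, and they do not say which cells lost Sav1. They also do not state that each library came from its own animal, so p-values measure the spread between libraries, which may in part be technical. Tamoxifen is the usual inducer of ligand-dependent Cre recombinase, and here it was given to 1 genotype only.

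Chemokines are small secreted proteins that direct the migration of cells through G protein-coupled receptors. Their names follow the spacing of the first cysteines: adjacent in CC ligands, and set apart by other residues in CXC ligands and in CX3CL1. Inflammatory members are induced in epithelium, endothelium and macrophages by NF-kB and by interferons, and draw neutrophils, monocytes or T cells. Homeostatic members such as CXCL12 are made steadily and hold cells in place. In the kidney, tubule cells are a main source of inflammatory chemokines after injury, while most of the receptors are carried by leukocytes.

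Values are the deposited normalized expression levels, which are not divided by gene length. By the step between low values, 1 read was worth 0.781 to 1.03 in this unit, and the libraries held the equivalent of 15700000 to 25000000 reads. Libraries are always named in the order of replicates 1 to 4. Fold changes compare Sav1-null with wild-type libraries after adding 1 and taking log2, and come with standard errors and Benjamini-Hochberg adjusted p-values from limma, and a gene was called at an adjusted p under 0.05. Sav1 itself averaged 1350 ± 345 (SD, n = 4) in the wild-type group and 898 ± 127 in the Sav1-null group (1.48-fold lower, limma adjusted p = 0.0220). Per library it was 1504, 1743, 959 and 1193 against 983, 914, 982 and 714. Most Sav1 RNA thus remained, and Sav1-null replicates 1 and 3 lay above the lowest wild-type library. The labels do not say which part of the gene was removed. Transcripts of the sex chromosomes separated the groups too: Xist averaged 12229 ± 2922 in the Sav1-null libraries, while Ddx3y averaged 784 ± 58.1 in wild-type and was 0 in every Sav1-null library. Genotype, treatment and these transcripts cannot be told apart in any result below. Library names carry the same set of S-numbers in both groups, and a batch that follows the groups could not be checked. The cortex label was checked on nephron markers: Umod averaged 49307 ± 917 in wild-type cortex and 45895 ± 14933 in Sav1-null cortex. Slc34a1 of the proximal tubule averaged 152254 ± 11755 and 20806 ± 7554. A difference in the region sampled between the groups was not tested. Sav1-null replicate 4 stood apart from the other 3 of its group, with a chi-square per degree of freedom of 62.6 to 114 against each, where the other pairs of that group gave 14.0 to 28.1. Wild-type replicates 2 and 3 had more of the injury marker Havcr1 (1099 and 665) than replicates 1 and 4 (23.6 and 15.5).

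Most chemokine and receptor genes with measurable RNA were higher in the Sav1-null cortex. Of the 36 ligands, 21 passed the filter, which required a mean value of 10 or more across the 8 libraries, and of these 18 rose, 1 fell and 2 were not called. Of the 19 receptors, 11 passed, and of these 10 rose, 0 fell and 1 was not called. This stands against a background in which 69.1% of all 13677 tested genes were called, 43.9% higher and 25.2% lower. The median log2 fold change was 3.19 over the tested ligands and 2.02 over the tested receptors, beside 0.23 over all tested genes. The split of all calls depended on the scaling, with 63.5% higher as deposited. Median-of-ratios rescaling gave 49.9%, quantile normalization 48.3% and scaling to equal library totals 81.7%. In this order they moved the median of all tested genes by -0.22, -0.26 and 0.38. The ligand median was then 2.97, 1.97 and 3.57, and the receptor median 1.81, 0.98 and 2.40. At least 4-fold rises were called for 15 ligands and 7 receptors, against 10.3% of all tested genes. A filter on the overall mean lets a gene pass through its higher group alone. This held for 13 members (7 ligands and 6 receptors) with a wild-type mean under 10, which had to differ to be tested at all. Over the 14 ligands and 5 receptors with a wild-type mean of at least 10, the median log2 fold change was 2.198 and 2.02, beside 0.17 over all 12966 tested genes of such a level. At least 4-fold rises were called for 8 of these ligands and 3 of these receptors, against 7.10% of those genes. Of these 19 members together, 15 rose, 1 fell and 3 were not called.

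**Figure D1:**
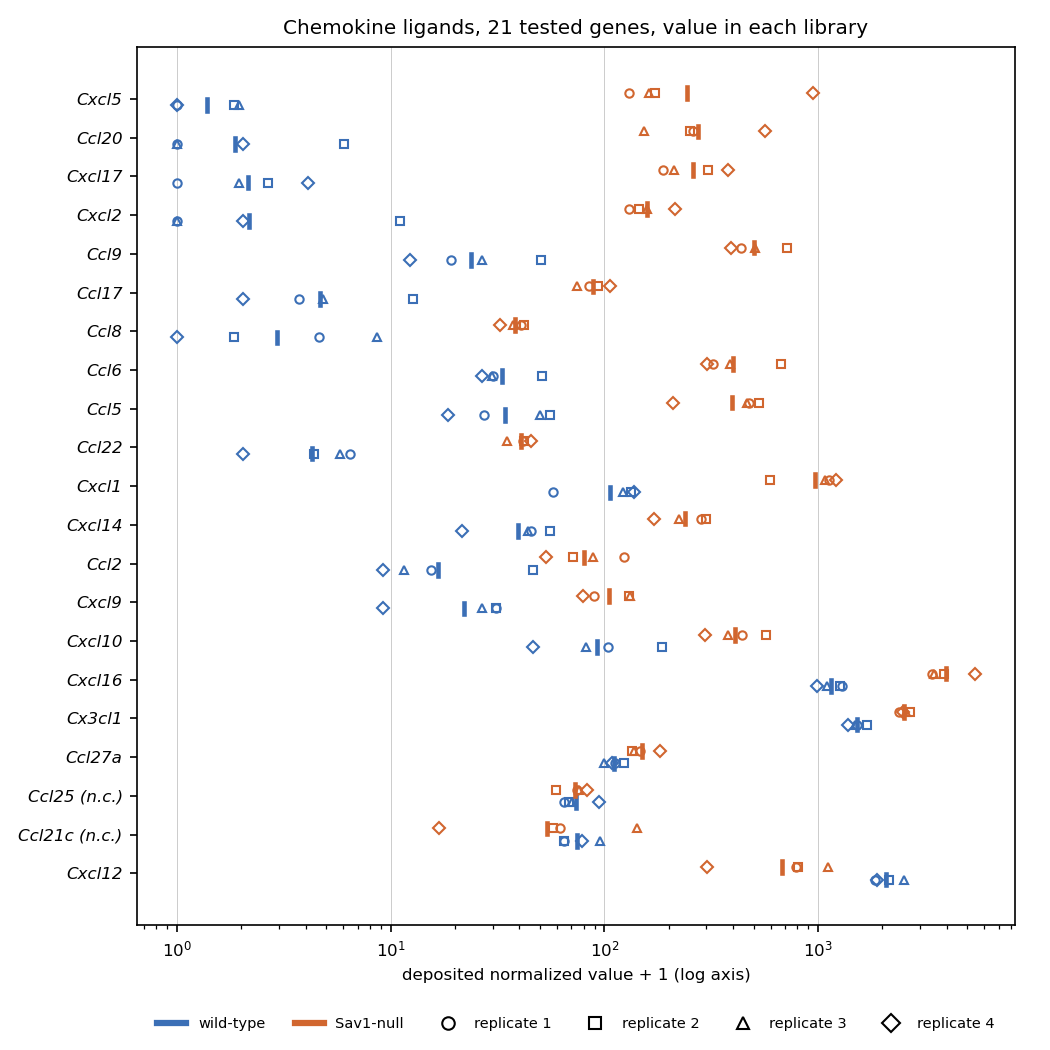
Deposited normalized value + 1 (horizontal log axis) of the 21 tested chemokine ligands in each of 4 wild-type (blue) and 4 Sav1-null (orange) libraries; symbols mark the replicate, short bars the mean on the log scale, and n.c. genes not called by limma. The groups do not overlap for 19 ligands, of which Cxcl12 alone is lower in the Sav1-null group, while Ccl25 and Ccl21c overlap. Of all tested genes, 41.0% do not overlap in the higher direction and 24.1% in the lower.

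**Figure D2:**
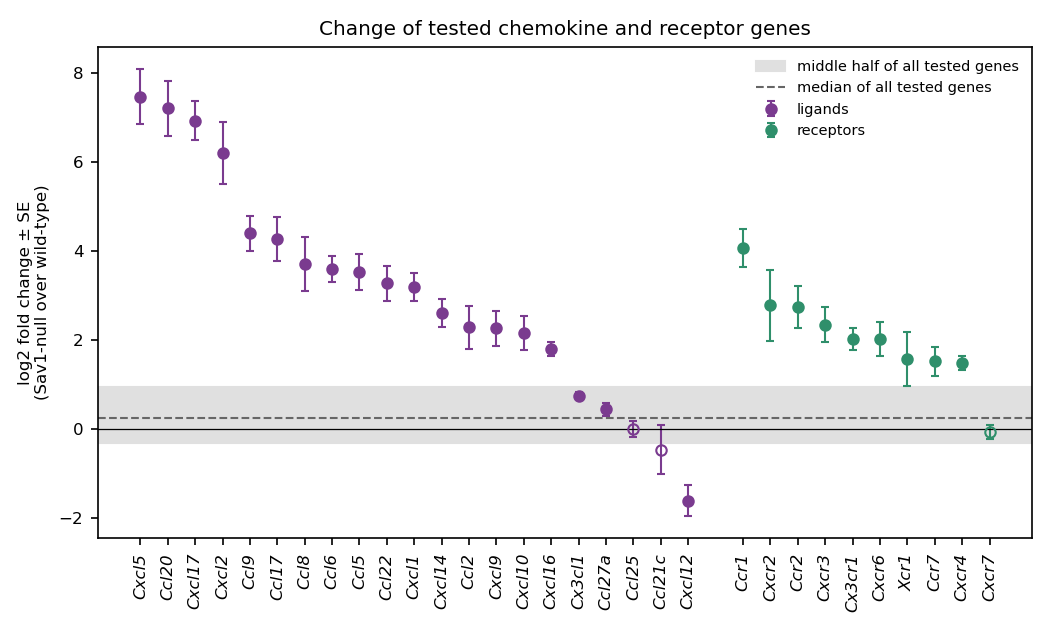
Log2 fold change (Sav1-null over wild-type, vertical axis) with its standard error for the 21 tested ligands (purple) and 10 of the 11 tested receptors (green); filled points were called by limma, the grey band holds the central 50% of all 13677 tested genes, and the dashed line is their median. Ligands span from -1.62 for Cxcl12 to 7.46 for Cxcl5, and receptors from -0.08 for Cxcr7 to 4.05 for Ccr1.

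The 6 ligands that had risen most were Cxcl5, Ccl20, Cxcl17, Cxcl2, Ccl9 and Ccl17. Their promoters are shown because chemokine genes are known targets of NF-kB and STAT factors, while TEAD factors act at the end of the Hippo pathway. The genes were chosen by the size of their rise, so their shared direction is no separate result. The RefSeq promoter table (GRCm38.p6) held 4 of them, Ccl20 (chr1:83116516-83116765, plus strand), Cxcl2 (chr5:90903649-90903898, plus strand), Ccl9 (chr11:83578637-83578886, minus strand) and Ccl17 (chr8:94810203-94810452, plus strand). Each sequence is the 250 bases before the annotated start, 5′ to 3′ on the strand of the gene. Capitals mark matches to the kB consensus in Ccl20, Cxcl2 and Ccl9, and to the STAT-type letters TTCNNNGAA in Ccl17.
Ccl20: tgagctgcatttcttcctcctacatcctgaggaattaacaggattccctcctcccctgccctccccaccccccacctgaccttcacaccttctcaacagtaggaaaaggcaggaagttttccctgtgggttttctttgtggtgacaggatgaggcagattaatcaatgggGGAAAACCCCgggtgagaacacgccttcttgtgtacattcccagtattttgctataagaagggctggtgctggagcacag
Cxcl2: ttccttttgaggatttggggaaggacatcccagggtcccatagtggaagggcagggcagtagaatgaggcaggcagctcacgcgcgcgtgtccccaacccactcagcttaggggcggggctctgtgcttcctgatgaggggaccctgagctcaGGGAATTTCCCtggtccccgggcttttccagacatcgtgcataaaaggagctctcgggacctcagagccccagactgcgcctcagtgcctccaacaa
Ccl9: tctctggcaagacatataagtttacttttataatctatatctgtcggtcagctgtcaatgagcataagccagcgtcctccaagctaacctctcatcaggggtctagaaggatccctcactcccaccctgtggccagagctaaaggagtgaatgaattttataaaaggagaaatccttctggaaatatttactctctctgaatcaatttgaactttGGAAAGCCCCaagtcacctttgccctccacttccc
Ccl17: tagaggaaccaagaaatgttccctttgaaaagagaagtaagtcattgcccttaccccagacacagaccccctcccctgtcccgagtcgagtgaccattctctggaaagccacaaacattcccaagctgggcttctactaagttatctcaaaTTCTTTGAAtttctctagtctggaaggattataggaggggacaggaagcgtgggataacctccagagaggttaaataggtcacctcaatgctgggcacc

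The kB match of Ccl20 lay from -80 to -71 before the start and that of Ccl9 from -35 to -26. In Cxcl2 the match GGGAATTTCC began at -97 and overlapped a match on the other strand by all but 1 base at each end. Cxcl1, the neighbour of Cxcl2, had the same letters GGGAATTTCC at -71, also read on both strands. Cxcl10 had kB matches at -159 (GGGAAATTCC) and at -104 (GGGGACTTCC), the latter overlapping further matches 1 base on, and a match to the core of the interferon-stimulated response element (ISRE) at -213. Of the 13 called-higher ligands in the promoter table, 5 had a kB match, 2 TTCNNNGAA, 2 the TEAD letters GGAATG, 3 the AP-1 letters TGANTCA and 2 the ISRE core, with both strands searched. Among all 32851 promoters of the table the same searches matched 7.25%, 7.02%, 12.6%, 6.75% and 2.98%. These shares are per promoter, whereas a ligand counted if any of its start sites matched, as Ccl27a did for AP-1 at start site 3 only. In the sequences shown, matches to GGAATG on the other strand of Ccl20 (-45 to -40) and Ccl17 (-135 to -130) are not capitalized. Nor is the AP-1 match of Ccl9 (-53 to -47). Among the 8 called-higher receptors in the table, Ccr1 had a kB match and Cxcr2 the letters GGAATG. These are letter matches only, and binding was not measured.

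Ligands of CXCR2, the receptor that draws neutrophils, were among the largest rises. Cxcl1 stood at 56.2, 132, 122 and 136 in wild-type and at 1126, 597, 1077 and 1212 in Sav1-null libraries, with no overlap. It rose 9.12-fold (log2 fold change 3.19 ± 0.32 SE, limma adjusted p = 2.2e-05). Cxcl2 was at 0, 10.1, 0 and 1.03 in wild-type and at 130, 144, 156 and 213 in Sav1-null libraries. Most of the wild-type signal of Cxcl2 thus sat in replicate 2, and the 72.9-fold rise (6.19 ± 0.70, limma adjusted p = 4.84e-05) was 125-fold without that library and 111-fold without wild-type replicates 2 and 3. Cxcl5 had 2 reads in all wild-type libraries together and 1509 in the Sav1-null libraries, at values of 129, 172, 160.4 and 949.8. The ratio of reads was 709 (exact 95% interval from 196 to 5863), where the interval covers counting error only. The fitted rise of Cxcl5 was 176-fold (7.46 ± 0.61, limma adjusted p = 7.56e-06). Sav1-null replicate 4 was far above the others, and without it the Sav1-null mean of Cxcl5 was 154 in place of 353. Cxcl3 lay below the filter, at 3 reads over the wild-type group and 37 over the Sav1-null group, a ratio of 11.6 (exact 95% interval from 3.67 to 58.8), and its groups did not overlap. Cxcl15 was 0 in every library.

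Their receptor and the transcripts of neutrophils, which carry it, were, like Cxcl5, uneven among the Sav1-null libraries. The receptor gene Cxcr2 was at 0.907, 2.51, 0 and 1.03 in wild-type and at 6.25, 3.91, 11.1 and 66.9 in Sav1-null libraries (log2 fold change 2.77 ± 0.81, limma adjusted p = 0.0125). Its level in Sav1-null replicate 4 exceeded that of the other 3 together, and the rise was 6.80-fold with all libraries and 3.93-fold without replicate 4. The call was lost with a pseudocount of 10 (limma adjusted p = 0.0540), after quantile normalization (0.253) and without wild-type replicates 2 and 3 (0.0532). Cxcr1, the other neutrophil receptor, was 0 in every library. Of the 7 neutrophil markers with a value, 3 could be tested and 1 rose (2 with equal library totals, 3 without Sav1-null replicate 1). This was Csf3r, the G-CSF receptor gene, which was at 9.07, 7.54, 6.70 and 3.09 in wild-type and at 25.8, 39.1, 36.3 and 147 in Sav1-null libraries (6.84-fold, limma adjusted p = 0.00127). The tested markers Csf3r, S100a8 and S100a9 had wild-type means of 6.60, 2.96 and 7.18. They thus passed the filter only through their Sav1-null values. S100a8, an abundant neutrophil protein gene, was at 6.35, 1.68, 3.83 and 0 against 1.56, 6.84, 26.1 and 104 (limma adjusted p = 0.0871). The granule gene Camp was 0 in every library and Ngp had a single value above 0, of 0.838 in wild-type replicate 2. The 7 markers summed to 6.19 to 26.3 in wild-type libraries, to 35.1, 59.6 and 90.1 in Sav1-null replicates 1 to 3 and to 468 in replicate 4. The part of neutrophil transcripts in these changes was not tested.

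**Figure D3:**
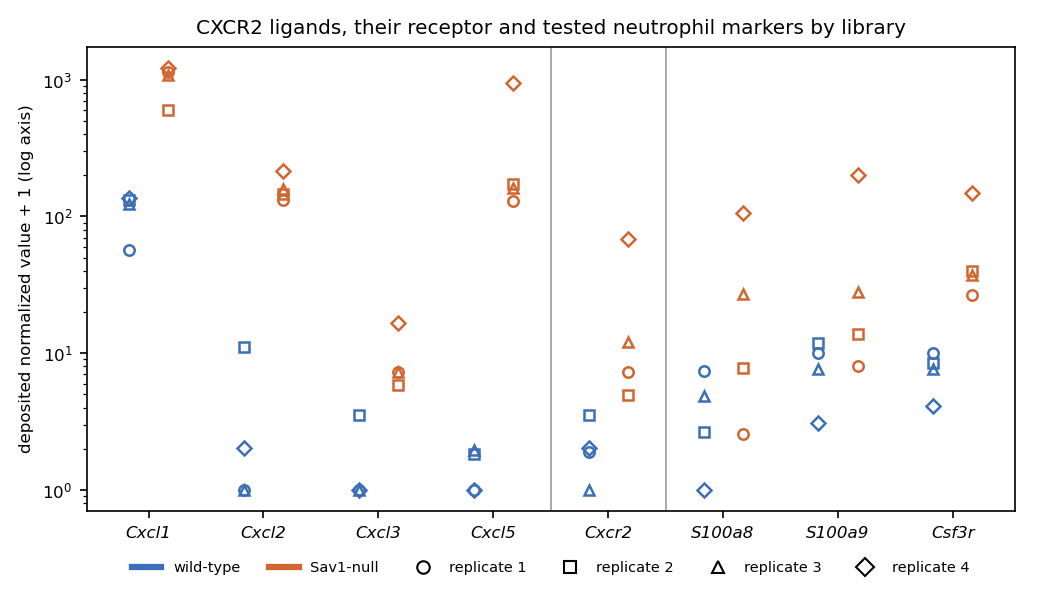
Deposited normalized value + 1 (vertical log axis) of the CXCR2 ligands Cxcl1, Cxcl2, Cxcl3 and Cxcl5, the receptor Cxcr2 and the neutrophil markers S100a8, S100a9 and Csf3r in 4 wild-type (blue) and 4 Sav1-null (orange) libraries, with the replicate shown by symbol. The ligands and Cxcr2 are above every wild-type library in each Sav1-null library, while S100a8 overlaps. The ligands, Cxcr2 (66.9) and S100a8 (104) are all highest in Sav1-null replicate 4.

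Ligands typical of mucosal and other epithelia rose, Ccl20 and Cxcl17 from a few reads per wild-type library. Ccl20, the CCR6 ligand of mucosal epithelium, was at 0, 5.03, 0 and 1.03 in wild-type and at 259, 250.2, 152 and 566 in Sav1-null libraries (log2 fold change 7.198 ± 0.62, limma adjusted p = 9.45e-06). Its receptor gene Ccr6 had no read in wild-type libraries and 11 in all Sav1-null libraries together, fewer than 3 a library on average. Cxcl17, a mucosal chemokine, was at 0, 1.68, 0.957 and 3.09 against 187, 304, 211 and 379 (6.92 ± 0.44, limma adjusted p = 2.13e-06). Cxcl14, an epithelial and stromal chemokine, was present in both groups, at 44.4, 54.5, 43.1 and 20.6 against 283, 297, 221 and 169. It rose 6.04-fold (limma adjusted p = 6.01e-05). Markers of the collecting duct epithelium were higher beside them (Aqp2 3.56-fold and Scnn1g 3.33-fold, summed 2789 to 3824 against 8293 to 15043), and their part in these rises was not tested. None of the 3 ligands overlapped between groups, as was also so for 41.0% of all tested genes in the higher direction and 24.1% in the lower. For genes as low as Ccl20 and Cxcl17 the fitted size depends on the pseudocount, and it was 4.65 and 4.57 with a pseudocount of 10.

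The interferon-inducible ligands of CXCR3, which draw activated T cells, rose 4- to 5-fold. Cxcl10 was at 102, 186, 81.3 and 45.4 in wild-type and at 440.4, 569.9, 378 and 295 in Sav1-null libraries (4.42-fold, limma adjusted p = 0.000798). Cxcl9 was at 29.9, 30.2, 25.8 and 8.25 against 88.2, 130.0, 130.4 and 78.7 (4.76-fold, limma adjusted p = 0.000783). Wild-type replicate 4 was the lowest library for both. Cxcl11, whose model is annotated as a polymorphic pseudogene in the reference strain, lay below the filter at 0.907 to 4.78 against 5.47 to 9.84. The receptor gene Cxcr3 rose beside them, from 6.35, 5.03, 3.83 and 2.06 to 25.8, 40.1, 20.5 and 16.7 (5.03-fold, limma adjusted p = 0.000537). Of 12 genes of the interferon gamma response 11 were tested and all 11 rose (median log2 fold change 1.92), beside 43.9% of all tested genes and their median of 0.23, also under each of the 3 other scalings. They included the receptor gene Ifngr1 (3.33-fold), the immunoproteasome gene Psmb8 (7.78-fold), the peptide transporter gene Tap1 (3.79-fold) and the transcription factor gene Irf1 (6.92-fold).

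Monocyte and macrophage chemokines of the CC class rose with their receptors. Ccl2, the main ligand of CCR2, was at 14.5, 45.2, 10.5 and 8.25 in wild-type and at 123, 70.4, 87.7 and 52.2 in Sav1-null libraries. It rose 4.83-fold (limma adjusted p = 0.00249), and wild-type replicate 2 came close to the lowest Sav1-null library. Ccl8, a chemokine gene of the same cluster, rose from 0 to 7.66 up to 31.5 to 41.1 (13.0-fold, limma adjusted p = 0.000521). The CCR2 ligands Ccl7 and Ccl12 lay below the filter, at means of 3.49 ± 3.83 and 1.32 ± 1.09 against 12.5 ± 4.29 and 13.8 ± 9.97. Ccr2 itself, the receptor of inflammatory monocytes, was at 66.2, 71.2, 49.8 and 15.5 against 328, 403, 350.0 and 166. It rose 6.62-fold (2.73 ± 0.47, limma adjusted p = 0.000663).

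The CCR1 ligands Ccl5, Ccl6 and Ccl9 each rose by more than 10-fold. Ccl5 was at 26.3, 54.5, 48.8 and 17.5 in wild-type and at 474, 528, 465 and 209 in Sav1-null libraries (11.5-fold, limma adjusted p = 5.22e-05). Ccl6, a macrophage chemokine of rodents, was at 29.0, 50.3, 28.7 and 25.8 against 322, 671, 386 and 300.2 (11.996-fold, limma adjusted p = 7.29e-06). Ccl9, a myeloid chemokine of rodents, was at 18.1, 49.4, 25.8 and 11.3 against 435, 715, 506 and 391 (20.99-fold, limma adjusted p = 1.23e-05). Wild-type replicate 2 was the highest of its group for all 3 of these genes, and without wild-type replicates 2 and 3 the folds of Ccl5 and Ccl9 were 17.6 and 32.5. Ccl3 and Ccl4, which encode MIP-1 alpha and beta, lay below the filter with most of their signal in Sav1-null replicate 4. Ccl3 was at 0.907, 1.68, 0 and 0 against 2.34, 2.93, 2.37 and 42.3, and Ccl4 at 0.907 to 3.83 against 1.56, 4.89, 2.37 and 15.7. Among the receptors, Ccr1 was at 3.63, 9.21, 10.5 and 2.06 against 106, 105, 80.6 and 136. With 16.6-fold (4.05 ± 0.43, limma adjusted p = 3.28e-05) it had the highest fold of the tested receptors, and it was 28.2-fold without wild-type replicates 2 and 3.

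Ligands associated with dendritic cells rose as well. Ccl17, a ligand of CCR4, was at 2.72, 11.7, 3.83 and 1.03 in wild-type and at 83.5, 91.9, 73.5 and 105 in Sav1-null libraries. It rose 19.1-fold (4.26 ± 0.49, limma adjusted p = 5.6e-05), or 32.3-fold without wild-type replicates 2 and 3. Ccl22, the other CCR4 ligand, ranged from 1.03 to 5.44 against 34.0 to 44.3 (9.58-fold, limma adjusted p = 6.37e-05). Ccl17 and Ccl22 flank Cx3cl1 in the reference annotation. Ccr4 had no read in wild-type libraries and 4.74 to 10.8 in Sav1-null libraries, which is at least 2.54-fold higher against 3 reads in each wild-type library. Ccr7, the lymph node homing receptor of dendritic cells and naive T cells, was at 8.16, 6.70, 12.4 and 4.12 against 22.6, 26.4, 19.8 and 22.6. It rose 2.84-fold (limma adjusted p = 0.00275), a call lost after quantile normalization (0.555). Xcr1, the receptor of cross-presenting dendritic cells, was at 9.98, 12.6, 6.70 and 1.03 against 23.4, 23.5, 26.9 and 9.84. Sav1-null replicate 4 lay inside the wild-type range of Xcr1. Exact permutation of the libraries, two-sided, returned p = 0.0857 for it, with 0.0286 the lowest that 8 libraries split evenly can reach. Its call (limma adjusted p = 0.0421) was lost in 7 alternatives, among them without wild-type replicate 4 (0.0657), when the fold fell from 2.97 to 1.97, and on leaving out wild-type replicate 3 (0.0690) or any of the Sav1-null replicates 1 (0.0883), 2 (0.0931) and 3 (0.0959).

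The transmembrane ligands Cxcl16 and Cx3cl1, both at high level in these libraries, rose by less. Cxcl16, a membrane-anchored ligand of CXCR6, was at 1294, 1271, 1098 and 983 in wild-type and at 3415, 3901, 3471 and 5407 in Sav1-null libraries (3.44-fold, limma adjusted p = 1.06e-05). Cx3cl1, which encodes fractalkine, was at 1524, 1690.5, 1487 and 1378 against 2399, 2678, 2576 and 2500 (1.67-fold, limma adjusted p = 3.38e-05). Their receptor genes rose more than Cx3cl1 did. Cxcr6 was at 8.16, 8.38, 13.4 and 3.09 against 34.4, 27.4, 42.7 and 29.5 (4.03-fold, limma adjusted p = 0.00129), a call lost after quantile normalization (0.0625). Cx3cr1, the receptor of resident macrophages and monocytes, was at 64.4, 60.3, 38.3 and 30.9 against 185, 165, 193 and 225 (4.05-fold, limma adjusted p = 7.16e-05). Adam10, a protease gene whose product sheds both ligands from the membrane, rose 1.93-fold (limma adjusted p = 3.89e-05).

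Cxcl12, the homeostatic ligand of CXCR4 and CXCR7, was the only ligand that fell among the 21 tested. It was at 1843, 2153, 2522 and 1896 in wild-type and at 785, 804, 1110.0 and 300.2 in Sav1-null libraries. Every Sav1-null library lay below every wild-type library. The Sav1-null mean was 35.6% of the wild-type mean (log2 fold change -1.62 ± 0.34, limma adjusted p = 0.00219). Sav1-null replicate 4 was the lowest, and without it the mean was 42.8% of wild-type. Markers of podocytes and of endothelium, which make CXCL12 in the kidney, were measured beside it. The podocyte gene Nphs1, which encodes nephrin, fell 5.12-fold (limma adjusted p = 0.00328), from 294 to 446 in wild-type to 21.7 to 145 in Sav1-null libraries. Of the 3 endothelial markers Kdr fell 3.04-fold and Pecam1 and Cdh5 were not called (limma adjusted p = 0.588 and 0.564), with a sum of 1092 to 1333 against 377 to 1183. Their part in the fall of Cxcl12 was not tested. In bulk tissue, fewer cells of a type and less RNA per cell cannot be told apart.

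The receptors of CXCL12 did not follow it. Cxcr4 rose 2.76-fold (limma adjusted p = 3.69e-05), from 66.2, 84.6, 85.2 and 76.3 to 205, 275, 183 and 213. Cxcr7, which encodes the scavenging receptor now named ACKR3, was at 1272, 1293, 906 and 775 against 993, 910.1, 1028 and 1009. It was not called (log2 fold change -0.08 ± 0.16, limma adjusted p = 0.692), and its sign turned with equal library totals (0.31) and without wild-type replicate 1 (0.023) or 2 (0.031). The Sav1-null libraries all lay inside the wild-type range.

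**Figure D4:**
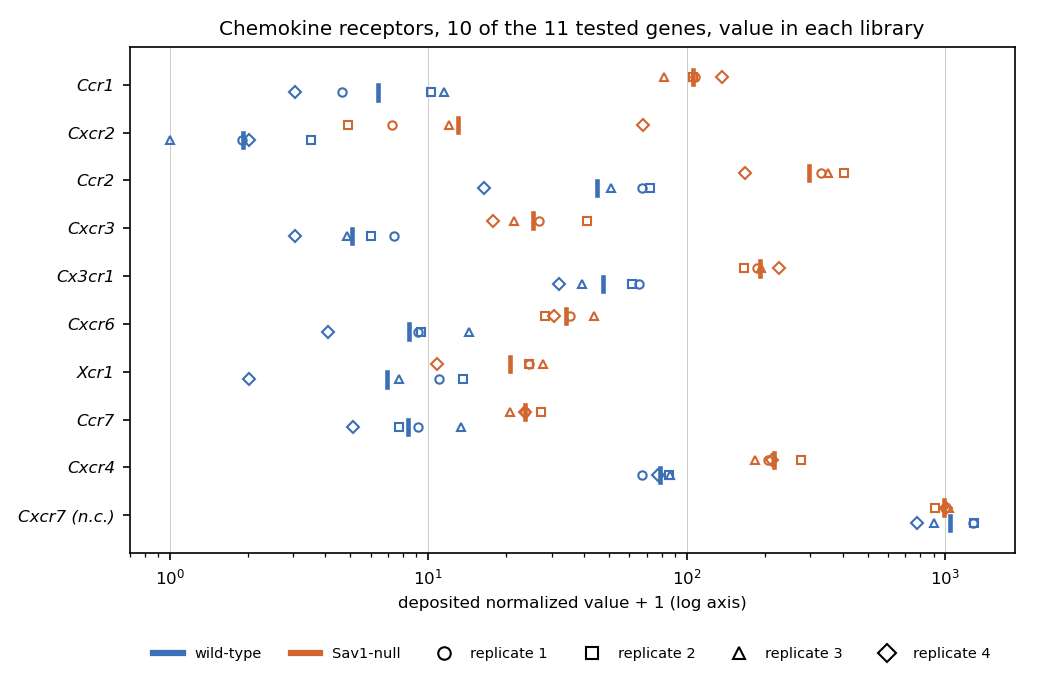
Deposited normalized value + 1 (horizontal log axis) of 10 of the 11 tested chemokine receptors in each of 4 wild-type (blue) and 4 Sav1-null (orange) libraries; symbols mark the replicate, short bars the mean on the log scale, and n.c. a gene not called by limma. The groups are apart for 8 of the receptors drawn and overlap for Xcr1 and Cxcr7, and wild-type replicate 4 is the lowest of its group for 8 of the 10. Of all tested genes, 41.0% are apart in the higher direction and 24.1% in the lower.

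Ccl27a, Ccl25 and Ccl21c, which are made without inflammation, changed little or did not pass the test. Ccl27a was at 112, 123, 98.6 and 107 in wild-type and at 146, 134, 137 and 180.1 in Sav1-null libraries. It was 1.35-fold higher (limma adjusted p = 0.0215), but not after median-of-ratios rescaling (0.220), without wild-type replicate 3 (0.0588) or without wild-type replicates 2 and 3 (0.0770), and its sign turned after quantile normalization (log2 fold change -0.29). It overlaps Il11ra1 on the other strand and has the near-identical copy Ccl27b, so its value is uncertain. Ccl25, which overlaps Elavl1, ranged from 63.5 to 93.8 against 58.7 to 81.7 (limma adjusted p = 0.929). Quantile normalization made it a called fall (-0.92 on the log2 scale, limma adjusted p = 0.00349). Ccl21c, one of several near-identical genes for the CCR7 ligand of lymphatic vessels, was at 63.5, 63.7, 94.7 and 77.3 against 60.9, 56.7, 141 and 15.7 (limma adjusted p = 0.457). Its Sav1-null libraries spanned both sides of the wild-type range, and quantile normalization made it a called fall (-1.37 on the log2 scale, limma adjusted p = 0.0489).

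The 23 members below the filter, 15 ligands and 8 receptors, added little RNA. Ccl26, Cxcl15 and Cxcr1 were at 0 in every library. No ligand of this set exceeded 42.3 in a library and no receptor 17.6. Cxcl13, the B cell attractant, ranged from 0 to 5.44 in wild-type and from 7.03 to 28.5 in Sav1-null libraries, while its receptor gene Cxcr5 stayed at 0 to 2.95 in all 8. Ccl19, the second CCR7 ligand, was at 2.72 to 3.35 against 2.93 to 17.7, with overlap. The eosinophil ligands Ccl11 and Ccl24 did not exceed 3.90, and their receptor gene Ccr3 had 2 reads over the wild-type group and 0 over the Sav1-null group. Ccr10, receptor of CCL27, had a lower mean in the Sav1-null group (7.34 ± 2.99 against 3.49 ± 1.25, with overlap), and Ccr9, receptor of CCL25, ranged from 1.91 to 5.15 against 1.97 to 17.6. Ccl1, Ccr8, Xcl1 and Ccl27b had at most 8 reads in a group. Just outside the filter stood Ccl7 and Cxcl13 with means of 7.98 and 8.02 over the 8 libraries, and just inside it Cxcr2 and Xcr1 with 11.6 and 14.2.

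Transcripts of leukocytes moved together with the receptors, on a background of 43.9% of all tested genes called higher. All 4 pan-leukocyte markers rose, with a sum of 395 to 599 in wild-type and 2300 to 3017 in Sav1-null libraries. Among them Ptprc, which encodes CD45, rose 5.36-fold. Of 7 macrophage and monocyte markers 6 rose and 1 fell (0 fell with equal library totals, or on leaving out wild-type replicate 1, wild-type replicate 2, both wild-type replicates 2 and 3, or replicate 2 of the Sav1-null group), with a sum of 752 to 1505 against 4714 to 6814. Itgam (18.7-fold) and Cd14 (23.1-fold) led them, Csf1r rose 1.69-fold, and Ly6c2 fell 1.96-fold. All 6 T cell markers rose (4 of 6 after quantile normalization), with a sum of 44.3 to 61.2 against 248 to 312 and Cd3e at 6.99-fold. Of 5 dendritic cell markers 4 rose (2 of 5 after quantile normalization), with a sum of 71.1 to 118 against 528 to 853, among them Itgax at 10.8-fold. The dendritic cell markers Flt3 and Clec9a also passed the filter only through their Sav1-null values, with wild-type means of 4.59 and 5.74. Of 5 NK cell markers 1 could be tested and it was not called, and Ncr1 was at 0 in 2 Sav1-null libraries and at 1.56 and 0.790 in the others. Their sum was 12.6 to 28.9 in wild-type and 19.2 to 37.1 in Sav1-null libraries. Of 5 B cell markers only Cd79b passed the filter, and it rose 2.75-fold, a call lost after quantile normalization. The B cell sum was 21.8 to 38.1 against 36.2 to 77.8. The part of leukocyte number in the receptor changes was not tested.

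A comparison with Ptprc within each library was added after the values were seen. The difference between log2(receptor + 1) and log2(Ptprc + 1) was larger in the Sav1-null group by 1.63 for Ccr1 and smaller by 2.50 for Cxcr7, with no overlap in either (exact two-sided permutation p = 0.0286 each). For Cxcr3, Ccr2 and Cx3cr1 it changed by -0.09, 0.30 and -0.40 (exact permutation p = 0.6, 0.314 and 0.371). For Cxcr4 it changed by -0.96 and for Ccr7 by -0.91 (exact permutation p = 0.0571 each). Adjusted over the 11 receptors compared, none of these passed 0.05 (lowest exact permutation p after adjustment 0.105). The lowest exact permutation p possible here is 0.0286, so a few receptors with full separation could not pass after adjustment. The adjusted values thus cannot decide whether these receptors changed relative to Ptprc.

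Other genes of the chemokine system were read from lists of regulators and partners, whose counts stand beside 43.9% of all tested genes called higher and 25.2% called lower. Some listed genes, such as Rgs1, Rel and Pf4, had wild-type means under 10 (4.47, 7.17 and 3.66). Such genes passed the filter only through their Sav1-null values. Of 28 genes of receptor signalling and trafficking, all tested, 23 rose and 1 fell (median log2 fold change 1.25). Pik3r5, a subunit of the leukocyte PI3 kinase gamma, rose 10.8-fold, the receptor kinase gene Grk5 4.66-fold, Arrb2, which encodes beta-arrestin 2, 3.99-fold and Rgs2, a G protein regulator gene, 2.32-fold. Ptk2b, a focal adhesion family kinase gene, fell 1.41-fold, and with equal library totals 26 genes of this list rose and 0 fell. Of 16 NF-kB factors and inhibitors 13 rose and 1 fell (median 1.43). Nfkbiz and the inhibitor gene Tnfaip3 rose 12.8-fold and 6.37-fold, Birc3 10.1-fold and Nfkb1 2.997-fold, while Chuk, which encodes the kinase IKK alpha, fell 2.47-fold. Of 15 proteases and proteoglycans that cut or anchor chemokines, 12 were tested, 9 rose and 1 fell. Besides Mmp14 (14.3-fold), Sdc1, the heparan sulfate proteoglycan syndecan 1, rose 5.53-fold, and Ext1, a heparan sulfate synthesis gene, fell 1.30-fold. Of the atypical receptors and decoys 2 were tested besides Cxcr7, and both rose, Pitpnm3 2.88-fold and Ccrl2 1.53-fold (Ccrl2 was near the threshold, limma adjusted p = 0.0422, and 1 of the 2 was called in 10 of the alternatives). Of 6 tested chemokine-like ligands and receptors 4 rose (2 after quantile normalization) and 1 fell. Pf4, the platelet CXC chemokine, rose 5.52-fold, and Mif fell 1.32-fold (limma adjusted p = 0.0389), while in 8 of the 18 alternatives 0 genes of this list fell.

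The make-up of the chemokine pool shifted when values were divided by exon length. Lengths came from another build than the files use, matched 54 of the 55 members and ignore isoform use, so they are approximate. In wild-type cortex Cx3cl1, Cxcl16 and Cxcl12 made up 70.1% ± 4.36 (SD, n = 4) of the summed ligand value per kilobase, and in Sav1-null cortex 35.3% ± 1.62. Per library this was 74.3%, 64.0%, 70.3% and 71.8% against 33.2%, 35.4%, 35.3% and 37.1%, with no overlap. Cxcl12 alone went from 17.9% ± 2.49 to 1.644% ± 0.808. Cxcl1 took 7.12% ± 2.60 and then 16.1% ± 4.38, and Ccl5 4.04% ± 1.55 and then 12.3% ± 4.68. With the mean length of the annotated coding transcripts in place of the joined exons, the share of the first 3 genes was 75.7% ± 2.92 and 43.2% ± 1.29. With the joined exons Cx3cl1 and Cxcl16 held 26.1% each in wild-type cortex, and with the mean transcript length 39.2% and 15.4%. In Sav1-null cortex their order depended on that choice, at 10.99% and 22.6% with joined exons and 22.4% and 18.1% with transcripts. The summed ligand value per kilobase was 1656 ± 225 in the wild-type group and 6572 ± 589 in the Sav1-null group, and the summed receptor value 431 ± 94.5 and 651 ± 17.1. Among receptors Cxcr7 held 80.1% ± 3.02 of the wild-type sum and 49.4% ± 3.80 of the Sav1-null sum.

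**Figure D5:**
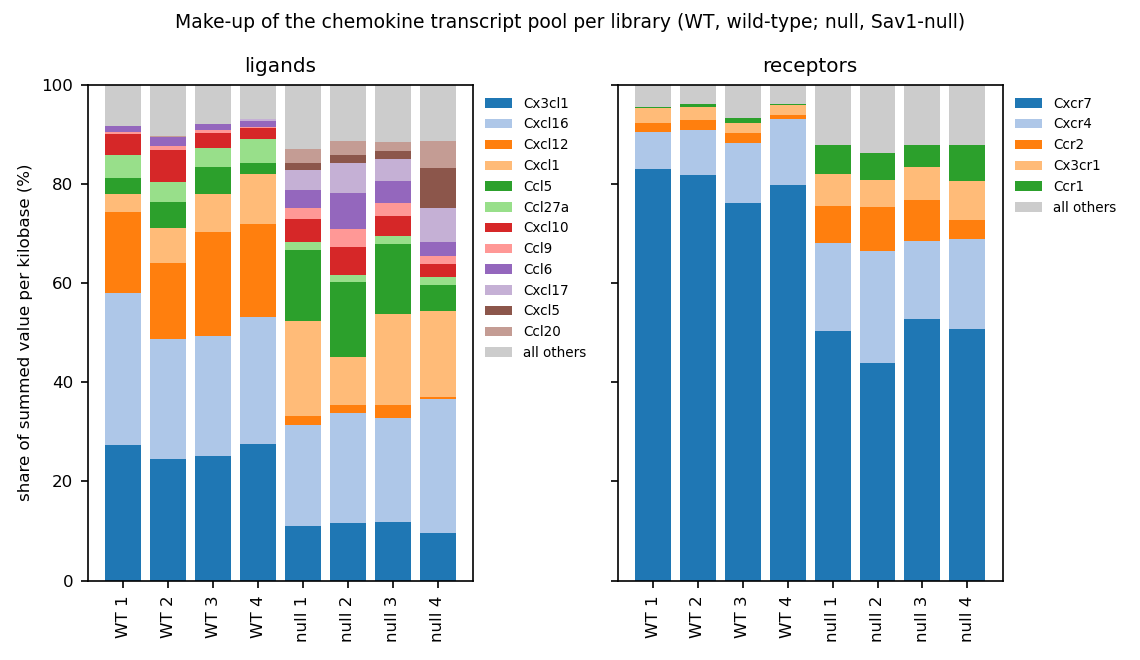
Share of the summed deposited value per kilobase of exon (vertical axis, percent) held by each named ligand (left) or receptor (right) in every library. In the wild-type (WT) libraries Cx3cl1, Cxcl16 and Cxcl12 hold 64.0% to 74.3% of the ligand sum and in the Sav1-null (null) libraries 33.2% to 37.1%, while Cxcr7 falls from 80.1% to 49.4% of the receptor sum on average.

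Many members are neighbours in the reference annotation, and neighbours differed in level. In the run of Cxcl5, Cxcl3, Cxcl15, Cxcl1 and Cxcl2, 3 genes rose, Cxcl3 lay below the filter and Cxcl15 was 0 throughout. In the run of Ccl5, Ccl9, Ccl6, Ccl3 and Ccl4 the first 3 rose by 11.5- to 20.99-fold, while Ccl3 and Ccl4 lay below the filter. In the run of Ccl2, Ccl7, Ccl11, Ccl12, Ccl8 and Ccl1, Ccl2 and Ccl8 rose and the others were not tested. Below the filter, Cxcl3, Ccl3 and Ccl12 were also higher in every Sav1-null library than in any wild-type library, at low values. Ccl4, Ccl7, Ccl11 and Ccl1 overlapped between the groups. The receptor run that holds Ccr9, Cxcr6, Xcr1, Ccr1, Ccr3 and Ccr2 included 4 of the named receptors that rose, with Ccr9 and Ccr3 below the filter. Several members overlap a gene on the other strand in the annotation, among them Cxcl16 (Zmynd15), Cxcl10 (Art3), Cxcr6 (Fyco1), Ccl2 (Gm17268) and Cx3cr1 (several genes). As the counting strand is unknown here, reads of such partners cannot be told apart.

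Libraries of a group differed more in these genes than in most. The median coefficient of variation over the 32 tested members was 46.2% within the wild-type group and 26.5% within the Sav1-null group, against 10.99% and 15.1% over all tested genes, which are also higher in level on average. Wild-type replicate 2 had the highest value of its group for 12 of the 21 tested ligands, and replicate 4 the lowest for 12. Sav1-null replicate 4 had the highest value of its group for 10 tested ligands and the lowest for 10. It was high for Cxcl5, Ccl20, Cxcl16 and Cxcl17 and low for Ccl5, Ccl2, Cxcl9, Cxcl10 and Cxcl12.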

How the data were processed

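The authors deposited 1 table of RSEM expression values for the 8 libraries. The submitters' processing notes list RSEM, SAMtools, Picard 1.64 and the mm9 build, and no source used here gives the aligner, the annotation or the strand setting. Libraries were of the stranded poly(A) type, from column-purified RNA, per the labels' protocols. The deposited values are a normalized signal, not counts: in each library the upper quartile of the non-zero values is near 1000. From 92.7% to 93.3% of deposited values above 0 and under 400 were whole multiples of the step of 1 read, within 0.02 read, too few for a count test. For member values above 0 and under 400 reads, a slightly different limit, the share was 99.3%. Read numbers and exact 95% intervals are given only for genes near 0.

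Values were taken as log2(value + 1). Genes with a mean of 10 or more (13677 of 21705) were fitted with limma 3.58.1 in R 4.3.3, with a mean-variance trend, no covariate and Benjamini-Hochberg adjustment over all of them. Permutation tests were exact and two-sided. Lengths and neighbours came from GENCODE M21, and promoters from RefSeq on GRCm38.p6. The members, the lists and the tests were chosen with earlier results of these data known. Values per library are given for called ligands with a mean of at least 50 in the higher group, for receptors that passed the filter, and for uncalled members with a mean of at least 100 in a group; other members are given by range, and Ccl22, Ccl21c, Ccl3 and Csf3r were added for their role. From the related lists, up to 4 called genes with the smallest p in the main direction and up to 2 against it are named, with defining markers. The closing part gives 17 alternatives chosen with the design and 1 chosen after the values were seen. A few genes are counted in the totals and lists but not reported here by name.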

Additional observations from a re-analysis of the deposited data

Results flagged for a closer look

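In 4 of 51 groups of 4 libraries checked, 1 library lay far outside the others by Dixon's criterion, where chance alone flags about 1 in 20 groups, or 2.55 of 51. Ccl2 was 45.2 in wild-type replicate 2 and 8.25 to 14.5 in the other wild-type libraries. Ccl6 was 50.3 in the same library and 25.8 to 29.0 in the others, so this library was high for ligands of both the CCR2 and the CCR1 receptor. Cxcl5 was 949.8 in Sav1-null replicate 4 and 129 to 172 in the other Sav1-null libraries. Cxcr2, the receptor of CXCL5, was 66.9 in that library and 3.91 to 11.1 in the others.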

How the results depend on the processing

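Of the 32 tested members, 24 kept their direction and their side of the threshold in each of the 18 alternatives that tested them, and Ccl21c, Ccl25, Ccl27a, Ccr7, Cxcr2, Cxcr6, Cxcr7 and Xcr1 did not. With equal library totals 1946 genes in all were called lower, and the log2 fold change turned to 0.36 for Ccl25 and 0.31 for Cxcr7. After quantile normalization 3 ligands were called lower (Ccl21c and Ccl25 besides Cxcl12), 6 receptors were called higher, and Ccl27a turned to -0.29. Of all 13677 tested genes, 4245 were then called higher and 4551 lower. With a mean of at least 50 required, 8 members were not tested (Ccl8, Ccl17, Ccl22, Ccr7, Cxcr2, Cxcr3, Cxcr6 and Xcr1), and 5 of 6 receptors were called higher. This stood beside 4996 of all 11938 genes tested at that level. With no filter, 26 ligands and 12 receptors were called higher, of 34 and 18 tested, beside 6700 of all 17272 genes tested in that setting. On leaving out 1 library at a time, 5510 to 6363 genes in all were called higher and 3152 to 3629 lower, with 17 to 18 ligands higher and 1 lower, and 9 to 10 receptors higher and 0 lower. In the same settings the log2 fold change of Ccl21c ranged from -0.94 to 0.092, that of Ccl25 from -0.084 to 0.10 and that of Cxcr7 from -0.22 to 0.031. The cause of these changes was not tested.

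Replicate numbers did not pair the libraries: the correlations of same-numbered deviations were 0.144, 0.0762, -0.169 and 0.135. With the replicate number as a block 5927 genes in all were called higher and 3391 lower, with 18 ligands higher and 1 lower, and 10 receptors higher and 0 lower. The wild-type pair left out elsewhere in the text, replicates 2 and 3, was chosen after seeing the data. Values of a few reads limit Cxcl5, Ccl20, Cxcl17 and Cxcl2 in wild-type libraries, where the size of the fold depends on the pseudocount.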
